A study of Mus musculus with 9 samples.

Results

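Transcripts of 5 enzyme families of drug and lipid metabolism were examined in 3 kinds of mouse liver sample: UDP-glucuronosyltransferases (Ugt), sulfotransferases (Sult), carboxylesterases (Ces), epoxide hydrolases (Ephx) and flavin-containing monooxygenases (Fmo). The genes taken are those with a probe whose symbol in the deposited array table begins with 1 of these family names followed by a digit. That rule took 71 of the 45281 probes, for 44 of the 28891 genes on the array, and used no measured value. The Ugt family had 21 genes, Sult 11, Ces 5, Ephx 2 and Fmo 5. Of the 44 genes, 30 had a probe detected on at least 3 of the 9 arrays (detection p under 0.05) and could be tested among 13532 genes in all. Those 30 were 14 Ugt, 7 Sult, 4 Ces, 2 Ephx and 3 Fmo genes. The families are larger under current names, because the rule reads the symbols of the array's design.

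PV was the part of the liver acinus named after glutamine synthetase, an enzyme that fixes ammonia in the sheath of liver cells next to the central vein. NPV took in zones 1+2 of the acinus, the cells on the portal side of that sheath. SC was all the tissue scraped from the slide, without dissection. Each group had 3 samples on 1 array each, numbered 1 to 3 in the labels, and the arrays sharing a number are called a set. The labels name no allele, transgene or drug for any group. All tissue was fixed on glass, and the PV and NPV cells were collected by laser capture microdissection, which lifts chosen cells from a section. Neither age nor strain, nor the number of animals, nor the way in which PV cells were recognised, is stated in the labels. Samples are not tied to animals there, so the p-values measure the spread between these samples only, which may be technical.

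These families attack and tag foreign and endogenous lipophilic compounds. Fmo enzymes add an oxygen to nitrogen or sulfur atoms, Ces enzymes split esters and amides, and Ephx enzymes open epoxides with water. Ugt enzymes then join glucuronic acid, and Sult enzymes join sulfate, to hydroxyl and similar groups, so that the products can leave in bile or urine. Many drug-metabolising enzymes of rodent liver are known to be unevenly spread between the portal and the central end of the acinus.

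Arrays had from 16819 (37.1%) to 18721 (41.3%) probes detected, among them 38 to 44 of the 71 probes of these families. Glul, the gene of glutamine synthetase, had log2 intensities of 13.73, 12.81 and 12.88 on the PV arrays numbered 1, 2 and 3, against 11.09, 10.94 and 10.48 in NPV and 11.58, 11.70 and 11.44 in SC. Every PV array lay above every other array. Between PV and NPV the adjusted p of Glul was 0.0639 by limma and 0.0022 with the label number as a block. The arrays of set 3 stood apart in all 3 groups: across genes they correlated with the others at r = 0.944 to 0.959, while arrays of sets 1 and 2 correlated with each other at 0.981 to 0.992. Levels below are background-corrected, quantile-normalised log2 intensities in the order of sets 1, 2 and 3, and levels of different genes are not compared, since each probe has its own brightness. The SE of a difference is that of limma without the block unless stated, and so includes the spread between sets. In such bulk samples, fewer cells of a type and less RNA per cell cannot be told apart.

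The comparison of PV with NPV asked whether these enzymes differ between the central sheath and zones 1+2. Sult5a1, a sulfotransferase, was 1.73-fold lower in PV, and the glucuronosyltransferases Ugt2b34 and Ugt1a6a were 1.31-fold and 1.25-fold higher, each with PV and NPV arrays that did not overlap. Each value is that of the gene's brightest probe, and the other probes of Ugt1a6a did not share its difference. Ephx1, Fmo5 and the carboxylesterase Ces1d had differences of -0.09, 0.01 and 0.07 log2 units, each smaller than its SE. None of the 30 tested members passed limma's moderated test (adjusted p under 0.05 over 13532 genes): 0 were higher in PV, against 0.0222% of all genes (3 genes), and 0 were lower, against 0% of all genes. At an unadjusted p under 0.05, 0 of 30 members were higher and 1 was lower, against 181 and 123 of the 13532 genes. With the set number as a block in the same model, 0 members passed in either direction, against 0.310% of all genes higher (42 genes) and 0.00739% lower (1 gene). At an unadjusted p under 0.05 the block left 5 of 30 members higher and 2 lower, against 665 and 604 of the 13532 genes. The adjusted p by limma was 1 for each of the 30 members in each of the 3 comparisons, and an exact permutation test of 3 against 3 arrays cannot go below 0.1.

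Signs leaned towards PV, by small amounts. The difference was positive for 23 of 30 members, with a median of 0.11 log2 units, beside 6820 of the 13532 genes tested and a median of 0.00. Further genes of these families with older symbols, described last, had a median of -0.16. In 13 members PV exceeded NPV in 3 of 3 sets (43.3%), against 16.2% of all genes, and in 2 members, Ugt1a9 and Sult5a1, PV was below NPV in 3 of 3 sets, against 17.4% of all genes. These counts use each gene's brightest probe, and the second probe of Ugt1a9 had PV above NPV in set 1. Members of a tandem family can share probe targets, so these are not independent counts. The 3 PV arrays lay wholly above the 3 NPV arrays for 4 members (Ugt2b34, Ugt1a6a, Ugt1a2 and Sult1e1), against 2.93% of all genes, and wholly below them for 1 (Sult5a1), against 2.93% of all genes. Sult1e1 is among the 4 only by 4.93 on PV 2 against 4.92 on NPV 3. Both lie below the lowest detected level of their array (5.08 and 5.11), so its groups were not separated above background.

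**Figure D1:**
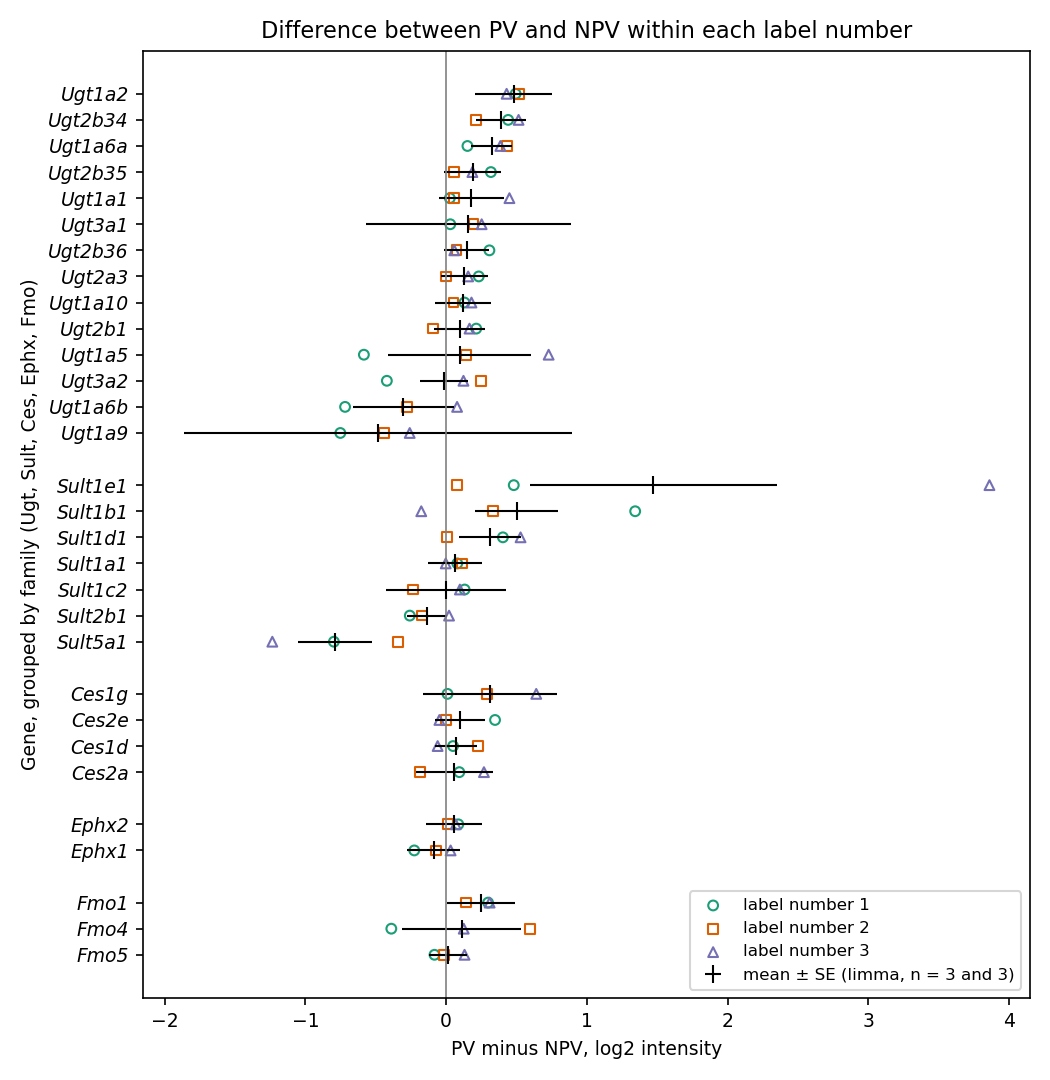
PV minus NPV in log2 intensity (horizontal axis) for the 30 tested members by family, ordered within a family by the mean difference; open symbols are the differences within each label number and the black tick and line are limma's mean ± SE (n = 3 and 3). Of the 14 Ugt genes, 8 have all 3 symbols to the right of 0; Sult5a1 has all 3 to the left, and the set 3 symbol of Sult1e1 lies far to the right at 3.86.

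Among the Ugt genes the median difference between PV and NPV was 0.14, with values of 0.14, 0.07 and 0.18 within sets 1, 2 and 3, and 8 of 14 were higher in PV in 3 of 3 sets. Members described here first are those with the smallest p-values. Ugt2b34, of the subfamily that conjugates steroids and bile acids, measured 11.96, 11.59 and 12.03 in PV, against 11.52, 11.38 and 11.51 in NPV and 11.21, 11.56 and 11.59 in SC. All 3 PV arrays lay above the others, though PV 2 and SC 3 had the same value to 2 decimals. The PV mean was 11.86 ± 0.23 and the NPV mean 11.47 ± 0.08 (SD, n = 3 each), a difference of 0.39 (1.31-fold, SE 0.17), which passed only under median scaling with the block, where the median of all genes was 0.296 (Ugt2b34 0.72, adjusted p = 0.0358, range 0.0358 to 1 over 25 other settings).

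Ugt1a6a, a phenol-conjugating form of the Ugt1a locus, measured 12.99, 13.06 and 13.20 in PV, against 12.83, 12.63 and 12.81 in NPV and 12.76, 12.45 and 12.64 in SC. The PV arrays lay above all NPV and SC arrays. PV averaged 13.08 ± 0.11 and NPV 12.76 ± 0.11 (SD, n = 3 each), a difference of 0.32 (1.25-fold, SE 0.15). The other 2 probes named Ugt1a6a did not share this, with PV minus NPV of -0.13 and -0.01, and the mean of the 3 gave 0.06. Genes of the Ugt1a locus each have their own promoter and first exon and share the downstream exons, and no probe sequences were used here, so which of these transcripts a probe reads is uncertain.

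Ugt1a2, another first-exon form of that locus, measured 6.04, 5.95 and 6.02 in PV, against 5.54, 5.43 and 5.59 in NPV, and 6.19, 5.0 and 5.30 in SC. The PV and NPV arrays did not overlap, while SC spanned both. The difference between PV and NPV was 0.48 (SE 0.27). Ugt2b35 differed by 0.19 (SE 0.20) and Ugt2b36, with levels of 15.35, 15.41 and 15.44 in PV against 15.04, 15.33 and 15.39 in NPV, by 0.15 (SE 0.16). Both had PV above NPV in every set and overlapping groups, and the second probe of Ugt2b36 gave a difference of -0.01. The Ugt2b genes are related tandem copies whose probes may read more than 1 of them.

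Ugt1a1, the enzyme that conjugates bilirubin, measured 8.24, 7.79 and 8.57 in PV, against 8.22, 7.73 and 8.12 in NPV and 7.87, 7.65 and 8.03 in SC. The groups overlapped, and most of the PV excess lay in set 3, where it was 0.45, against 0.03 and 0.06 in sets 1 and 2. The mean difference between PV and NPV was 0.18 (SE 0.23), and it was -0.01 to 0.38 on leaving out 1 array at a time. The lowest of the Ugt differences was that of Ugt1a9, at -0.48 with an SE of 1.38, or 0.14 with the block (adjusted p = 0.3). That gene was chosen here after its values were seen. Its second probe gave -0.18, and its levels differed by set, as described further on.

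**Figure D2:**
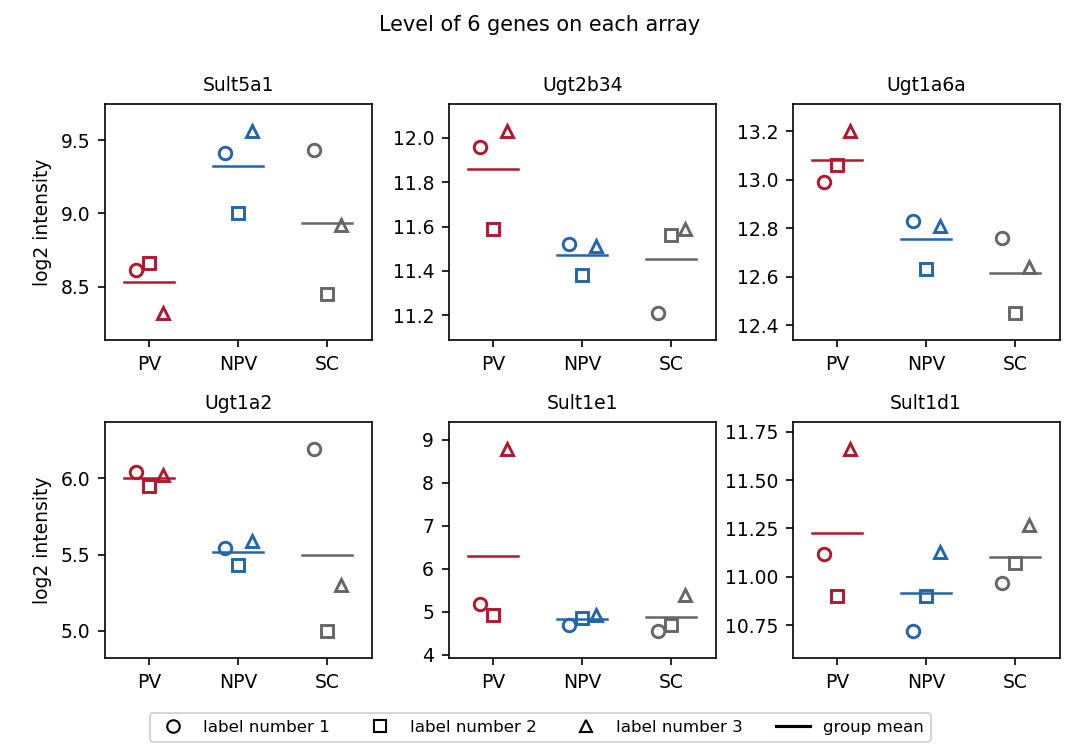
Log2 intensity on each array (vertical axis) for 6 genes in PV, NPV and SC; symbols give the label number and bars the group means, and vertical scales differ between panels and do not start at 0. The PV arrays sit below all NPV arrays for Sult5a1 and above them for Ugt2b34, Ugt1a6a and Ugt1a2; the PV mean of Sult1e1 rests on PV 3, at 8.78.

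The Sult family held the member with the smallest p-value. Sult5a1, a sulfotransferase whose substrate is not well defined, measured 8.61, 8.66 and 8.32 in PV, against 9.41, 9.0 and 9.56 in NPV and 9.43, 8.45 and 8.92 in SC. All 3 PV arrays lay below all 3 NPV arrays, while SC spanned the gap and had 1 array, SC 2, between the PV values. PV averaged 8.53 ± 0.18 and NPV 9.32 ± 0.29 (SD, n = 3 each), a difference of -0.79 (1.73-fold lower in PV, SE 0.26). It was the 1 member with an unadjusted p under 0.05, its adjusted p was 1 by limma, and with the block the adjusted p was 0.256 (range 0.078 to 1 over 25 other settings), so it did not pass. A second probe of Sult5a1 measured 6.27, 5.37 and 5.37 in PV, against 7.06, 6.28 and 6.55 in NPV and 6.68, 5.59 and 6.49 in SC. It too had PV lower than NPV in each set, with a mean difference of -0.96, and PV 1, with 6.27, lay next to NPV 2, with 6.28.

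The stretch around the start of Sult5a1 is shown because this gene had the smallest p of the 30 members between PV and NPV. It is 300 bases at chr8:123158231-123158530 on the minus strand of GRCm38.p6, from RefSeq, written from 5′ to 3′ along the gene, 250 bases before the start and 50 after it. The array files name no build, and these coordinates come from the RefSeq table alone.
Sult5a1: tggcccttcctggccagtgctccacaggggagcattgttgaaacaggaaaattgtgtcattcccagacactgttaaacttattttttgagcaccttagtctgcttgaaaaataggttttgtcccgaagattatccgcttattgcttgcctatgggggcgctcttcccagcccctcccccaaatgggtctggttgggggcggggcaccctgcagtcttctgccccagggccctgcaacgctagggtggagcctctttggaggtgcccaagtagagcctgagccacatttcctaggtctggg
A search on both strands for CTTTGA (the core of TCF/LEF sites, which act in Wnt signalling), GCGTG (the core of the xenobiotic response element), AGGTCA (a nuclear receptor half-site) and TATAAA (the TATA box) found none of these letters in that window, so it is all in lower case.

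Sult1d1, which sulfates catecholamines and other small phenols in mice, measured 11.12, 10.90 and 11.66 in PV, against 10.72, 10.90 and 11.13 in NPV and 10.97, 11.07 and 11.27 in SC. PV lay above NPV in sets 1 and 3 and by 0.01 in set 2, and the groups overlapped. The difference was 0.31 (1.24-fold, SE 0.22), which likewise passed only under median scaling with the block (adjusted p = 0.0482, range 0.0482 to 1 over 25 other settings). Sult1b1, a thyroid hormone and phenol sulfotransferase, measured 6.11, 5.19 and 5.22 in PV against 4.77, 4.86 and 5.40 in NPV, a difference of 0.50 (SE 0.29). Its sign turned in set 3, where the difference was -0.18, and it was detected on 3 PV arrays and 1 NPV array.

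Sult1e1, the oestrogen sulfotransferase, rested on 1 array. It measured 5.17, 4.93 and 8.78 in PV, against 4.69, 4.85 and 4.92 in NPV and 4.55, 4.68 and 5.38 in SC, and was detected on 2 PV arrays, 0 NPV arrays and 1 SC array. PV 3 was far above all other arrays, and the other 2 PV arrays lay barely above the NPV values. The PV mean was 6.29 ± 2.16 and the NPV mean 4.82 ± 0.12 (SD, n = 3 each). Since NPV was not above background, the fold of the means is a bound, with the lowest signal of detected probes standing in for the NPV arrays. The PV mean was at least 2.18-fold higher. That bound rested on PV 3 and does not hold for each PV array, and without PV 3 the difference was 0.23. Sult2b1, a cholesterol sulfotransferase, differed by -0.14 (SE 0.14) and was detected on 1 array in each group. Sult1a1 and Sult1c2, given to complete the 7 tested genes of the family, differed by 0.06 (SE 0.19) and 0.00 (SE 0.43).

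The 4 Ces genes chosen by symbol differed by 0.06 to 0.31 between PV and NPV, all positive and each smaller than its SE without the block. Ces genes known by older symbols, described last, lay between -0.26 and 0.01. Ces1g (Ces1 in the file), which hydrolyses lipid and drug esters, measured 10.50, 10.63 and 9.52 in PV, against 10.49, 10.34 and 8.88 in NPV and 10.27, 10.29 and 9.51 in SC, a difference between PV and NPV of 0.31 (SE 0.48). With the block the SE of that difference was 0.17 and the adjusted p 0.62. The set 3 array was the lowest in each of the groups. Ces1d (Ces3 in the file), a carboxylesterase that acts as a triacylglycerol hydrolase, measured 14.53, 14.71 and 14.37 in PV, against 14.48, 14.48 and 14.43 in NPV and 14.65, 14.83 and 14.51 in SC. PV and NPV differed by 0.07 (SE 0.15) and overlapped. Ces2e and Ces2a, carboxylesterases of a related subfamily, differed by 0.10 (SE 0.18) and 0.06 (SE 0.27).

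Both epoxide hydrolases gave differences smaller than their SE. Ephx1, the microsomal enzyme that detoxifies arene and alkene epoxides, measured 13.28, 13.46 and 13.85 in PV, against 13.51, 13.54 and 13.82 in NPV and 13.49, 13.44 and 13.71 in SC. The groups overlapped, and the difference between PV and NPV was -0.09 (SE 0.19), with 0.16 under median scaling. Ephx2, the soluble enzyme that hydrolyses epoxides of fatty acids, measured 13.43, 12.97 and 12.90 in PV, against 13.34, 12.96 and 12.83 in NPV and 13.37, 13.23 and 13.24 in SC. Its PV value was above NPV in each set by small amounts, with a mean of 0.06 (SE 0.20).

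Of the Fmo genes, Fmo1, a broad oxidase of amines and sulfides, measured 12.04, 12.08 and 12.59 in PV, against 11.75, 11.94 and 12.28 in NPV and 11.93, 11.99 and 12.54 in SC. PV was above NPV in each set, by 0.30, 0.14 and 0.31, while the groups overlapped. The difference was 0.25 (SE 0.24, or 0.11 with the block, where the adjusted p was 0.526). Fmo4 differed by 0.11 (SE 0.42). Fmo5, which oxidises carbonyl compounds, measured 12.80, 12.89 and 12.85 in PV, against 12.88, 12.90 and 12.72 in NPV and 13.09, 12.86 and 12.90 in SC, a difference between PV and NPV of 0.01 (SE 0.14). Its second probe gave -0.28, so the mean of its probes gave -0.14.

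The other 14 of the 44 genes had too few detections to be tested. Among them were 7 Ugt genes (Ugt1a7c, Ugt2a1, Ugt2a2, Ugt2b37, Ugt2b38, Ugt2b5 and Ugt8a) and 4 Sult genes (Sult1c1, Sult2a1, Sult3a1 and Sult4a1), and 11 of the 14 were detected on 0 of 9 arrays. In mouse liver Sult2a1 and Sult3a1 are known for high levels in females and low levels in adult males, and both were among the 11. Beside this, Xist, the RNA of the inactive X chromosome, was detected on 0 of 9 arrays, and the Y-linked genes Ddx3y, Eif2s3y and Kdm5d were each detected on 9 of 9. The labels give no sex.

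Markers of other cells were measured beside these. Median differences between PV and NPV were -0.04 for 7 hepatocyte, 0.04 for 9 sinusoidal and general endothelium and -0.06 for 5 red blood cell markers. For 9 Kupffer cell and macrophage markers it was 0.02, with -0.30, -0.26 and 0.55 within sets 1, 2 and 3. In these 4 lists 0 genes passed, with or without the block. Of 6 tested markers of central vein endothelium, 6 were higher in PV than in NPV, with a median difference of 1.28 and summed levels of 548 to 2979 in PV, against 275 to 963 in NPV and 438 to 1386 in SC (linear intensity). Of these, 2 passed with the block and 0 without it. Pericentral hepatocyte markers had a median difference of 1.21 over 9 genes, with 8 positive and 6 called with the block (0 without it), and periportal markers had a median of -0.49 over 10 genes, with 0 positive. Stellate cell and fibroblast markers, 10 genes, had a median of 0.47, with summed levels of 12080 to 19540 in PV, against 11970 to 12580 in NPV and 12630 to 15180 in SC. That median was 0.74, 0.68 and -0.08 within sets 1, 2 and 3. The 3 tested smooth muscle markers had a median of 0.92, with summed levels of 320 to 13860 in PV, against 225 to 3803 in NPV and 341 to 1470 in SC, and each had its highest level in PV 1. Their median was 1.80, 0.55 and -0.04 within sets 1, 2 and 3. Of 8 cholangiocyte markers, Krt19, Krt7, Epcam and Cftr were detected on 0 arrays, and the 4 tested (Sox9, Krt23, Muc1 and Spp1) had a median of -0.53 with 0 positive, among them Sox9 with -0.74 (SE 0.22) and Krt23 with -0.75 (SE 0.41), none of which passed with or without the block. The part of these cells in the differences of the enzymes was not tested.

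In the comparison of PV with SC, the sheath against undissected tissue, no member passed the test: 0 were higher, against 0% of all genes, and 0 were lower, against 0% of all genes, and with the block 0 were higher, against 0.0813% of all genes, and 0 lower, against 0% of all genes. At an unadjusted p under 0.05, 2 of 30 members were higher and 0 lower by limma, against 104 and 54 of the 13532 genes. With the block the members were 4 and 0, against 450 and 390 of the 13532 genes. The PV arrays lay above all SC arrays for 2 members, Ugt1a6a and Ugt2b34, against 1.74% of all genes, and below them for 0, against 1.96% of all genes. Ugt1a6a was 0.46 higher (1.38-fold, SE 0.15) and Ugt2b34 0.41 higher (1.33-fold, SE 0.17). The value of Ugt1a6a is that of its brightest probe, and its other 2 probes gave -0.03 and -0.12. Ugt1a1 differed by 0.35 (SE 0.23), with PV above SC in 3 of 3 sets, Sult1d1 by 0.12 (SE 0.22) and Ephx1 by -0.01 (SE 0.19). This comparison and that with NPV share the PV arrays, so the same PV values enter both.

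NPV and SC were compared last. No member passed: 0 were higher, against 0% of all genes, and 0 were lower, against 0% of all genes, and the block gave 0 and 0 as well, against 0% of all genes in each direction. At an unadjusted p under 0.05, 0 of 30 members were higher and 0 lower by limma, against 77 and 134 of the 13532 genes. With the block the members were 1 and 0, against 400 and 496 of the 13532 genes. The NPV arrays lay above all SC arrays for 0 members, against 1.89% of all genes, and below them for 1, Ces1d, against 2.32% of all genes. Ces1d was 14.47 ± 0.03 in NPV and 14.66 ± 0.16 in SC (SD, n = 3 each), a difference of -0.20 (SE 0.15). Ugt1a1 differed by 0.17 (SE 0.23), Sult1d1 by -0.19 (SE 0.22) and Ephx1 by 0.07 (SE 0.19). The 30 differences ran from -0.41 (Sult1b1) to 0.39 (Sult5a1), with 13 positive and a median of -0.01.

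**Figure D3:**
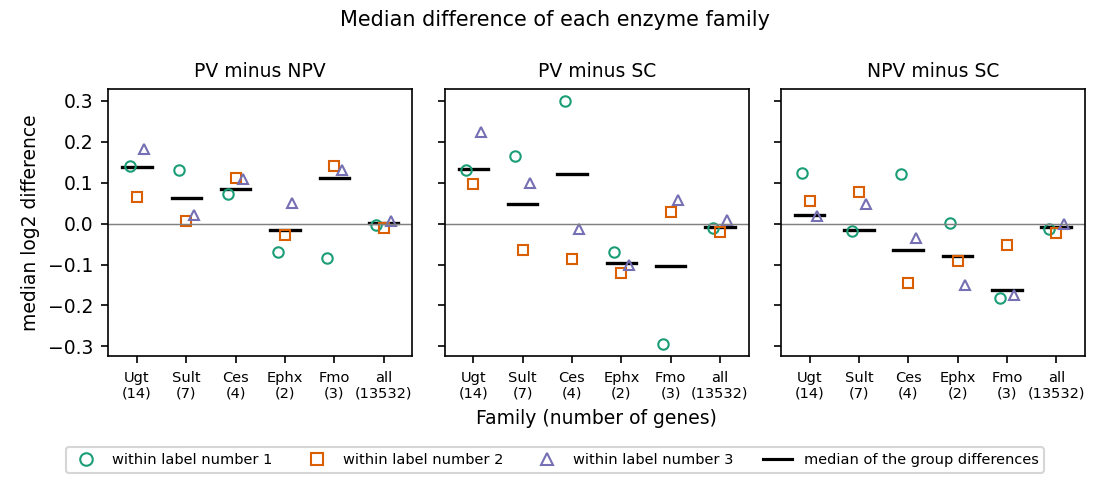
Median log2 difference of each family (vertical axis) in the 3 comparisons, with the number of tested genes under each name; bars are medians of the group differences, open symbols the medians within each label number, and the last column all genes tested. The Ugt medians within sets are above 0 in both comparisons of PV, and those of the other families differ in sign between sets in at least 1 of the 3 comparisons.

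Set against each other, the families ranked by median difference between PV and NPV as Ugt (0.14), Fmo (0.11), Ces (0.09), Sult (0.06) and Ephx (-0.02). These medians cover the genes chosen by symbol only. Ces genes known by older symbols, described last, mostly had PV below NPV, so the rank of Ces depends on that choice. Between PV and SC the medians were 0.13 for Ugt, -0.10 for Fmo, 0.12 for Ces, 0.05 for Sult and -0.10 for Ephx, and between NPV and SC they were 0.02 for Ugt, -0.16 for Fmo, -0.06 for Ces, -0.01 for Sult and -0.08 for Ephx. The Ugt median was positive within each set in each of the 3 comparisons, from 0.02 (NPV minus SC, set 3) to 0.22 (PV minus SC, set 3). The Sult, Ces, Ephx and Fmo medians each changed sign between sets in at least 1 comparison. With 2 to 14 genes per family, whose members share arrays, no test of a family against another was made.

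A larger split followed the label number and not the group, among the members as among all genes. The median absolute difference of set 3 from the other arrays was 0.326 in members and 0.309 in all genes tested. Of the 30 members, 11 (36.7%) were higher on all 3 arrays of set 3 than on all 6 other arrays, against 19.0% of all genes, and 3 (10%) were lower on all 3, against 18.0% of all genes. For 5 members (16.7%) the mean of set 3 differed from that of the other arrays by over 1 log2 unit, against 10.8% of all genes. What the number stands for (an animal, a slide or a day) is not stated, so these values are a description, with no test, and the genes named for it were chosen after their values were seen.

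The largest of these was Ugt1a9 (Ugt1a12 in the file for its brighter probe), a phenol-conjugating form. It measured 9.66 in PV 3, 9.92 in NPV 3 and 9.85 in SC 3, against 6.03 to 6.98 on the 6 other arrays, 11.1-fold higher in the mean (3.47 log2 units). The second Ugt1a9 probe measured 8.45, 8.47 and 8.71 on the arrays of set 3, against 4.87 to 5.75 on the others, 9.44-fold higher. Of 5 Ugt1a10 probes past the filter, 1 was detected only in set 3, at 8.68, 8.65 and 9.18, and lay at 4.43 to 4.64 on the others, so that set 3 was at least 12.7-fold higher. The other 4 Ugt1a10 probes were detected on all 9 arrays. Within each set PV lay below NPV for the brighter Ugt1a9 probe, with differences of -0.75, -0.44 and -0.26. The second Ugt1a9 probe did not share this in set 1. It measured 5.42, 5.14 and 8.45 in PV, against 5.33, 5.75 and 8.47 in NPV, a mean difference of -0.18.

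Ugt3a1, whose human counterpart links N-acetylglucosamine in place of glucuronic acid, went the other way. It measured 10.78 in PV 3, 10.53 in NPV 3 and 10.57 in SC 3, against 12.34 to 12.54 on the 6 other arrays, 3.51-fold lower (-1.81 log2 units). Its second probe measured 5.63 to 6.34 in set 3 and 7.39 to 8.13 on the others, 4.03-fold lower. Ces1g (-1.12) and Ugt1a5 (-1.10) were also lower on all 3 arrays of set 3, and Fmo4 was higher (0.95). Ugt1a9 and Ugt3a1 differed in opposite directions between the same arrays.

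For Fmo1 the 2 probes disagreed. The brighter probe measured 12.59, 12.28 and 12.54 in set 3, against 11.75 to 12.08 on the others (0.52 higher in the mean), and the second probe 4.58, 4.45 and 4.48 in set 3, against 7.35 to 7.85 on the others. The second probe was detected on 0 of the 3 arrays of set 3 and on 6 of the 6 others, and was at least 5.82-fold lower in set 3. Probe sequences were not used here, so whether it reads another transcript or an altered sequence was not tested.

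**Figure D4:**
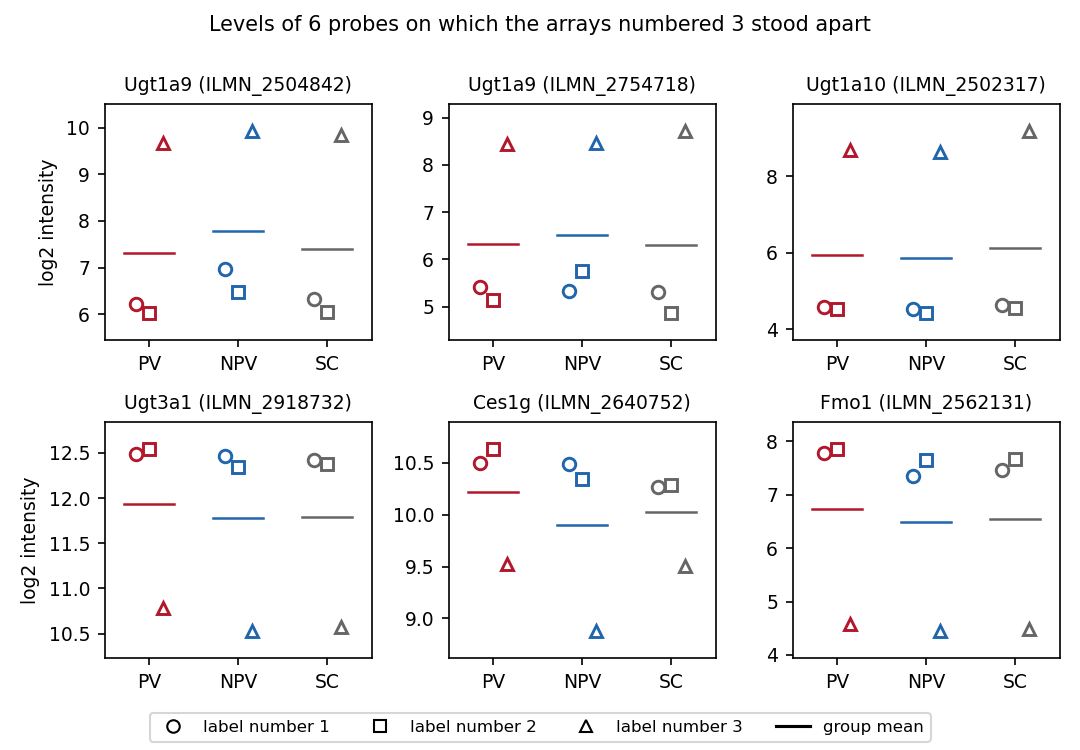
Log2 intensity on each array (vertical axis) for 6 probes chosen for the distance of set 3 from the other sets; symbols give the label number and bars the group means, and vertical scales differ between panels and do not start at 0. Triangles (label number 3) lie above all others for both Ugt1a9 probes and the Ugt1a10 probe, and below all others for Ugt3a1, Ces1g and the second Fmo1 probe, in PV, NPV and SC alike.

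The stretches around the starts of 4 Ugt genes are printed to set the 2 members with the smallest p among those higher in PV than in NPV (Ugt2b34 and Ugt1a6a) beside the 2 that differed most by array number (Ugt1a9 and Ugt3a1). Ugt2b34 lies at chr5:86906888-86907187 on the minus strand, and the others at chr1:88134559-88134858, chr1:88070529-88070828 and chr15:9279579-9279878 on the plus strand, of GRCm38.p6. They come from RefSeq and run 5′ to 3′ over the same span as above. Capitals mark matches, on either strand, to the 4 motifs named for Sult5a1.
Ugt2b34: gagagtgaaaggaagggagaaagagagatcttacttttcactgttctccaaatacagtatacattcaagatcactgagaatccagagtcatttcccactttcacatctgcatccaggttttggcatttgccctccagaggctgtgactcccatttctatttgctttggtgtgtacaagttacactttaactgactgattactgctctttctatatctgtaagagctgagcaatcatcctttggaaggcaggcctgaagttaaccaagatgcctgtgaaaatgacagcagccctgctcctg
Ugt1a6a: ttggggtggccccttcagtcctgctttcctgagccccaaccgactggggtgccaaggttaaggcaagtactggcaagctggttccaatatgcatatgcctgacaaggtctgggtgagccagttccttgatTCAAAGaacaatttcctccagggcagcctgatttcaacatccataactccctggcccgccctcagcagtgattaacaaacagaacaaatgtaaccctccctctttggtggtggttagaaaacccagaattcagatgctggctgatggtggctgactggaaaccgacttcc
Ugt1a9: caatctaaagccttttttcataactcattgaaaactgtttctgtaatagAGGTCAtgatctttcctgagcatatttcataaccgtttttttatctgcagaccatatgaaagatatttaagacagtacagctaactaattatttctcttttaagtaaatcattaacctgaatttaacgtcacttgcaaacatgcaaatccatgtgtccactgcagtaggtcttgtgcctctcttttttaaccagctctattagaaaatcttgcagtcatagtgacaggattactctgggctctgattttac
Ugt3a1: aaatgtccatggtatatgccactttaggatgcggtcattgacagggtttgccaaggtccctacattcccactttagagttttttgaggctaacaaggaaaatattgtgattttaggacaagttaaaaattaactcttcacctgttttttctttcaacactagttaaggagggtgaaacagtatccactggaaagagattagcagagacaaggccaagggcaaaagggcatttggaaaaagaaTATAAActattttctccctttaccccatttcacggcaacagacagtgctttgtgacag
The Ugt1a6a and Ugt1a9 windows belong to the same gene cluster and drive separate first exons. The Ugt2b34 window held 0 matches. The Ugt1a6a window held 1 CTTTGA, as TCAAAG on the strand shown, that of Ugt1a9 held 1 AGGTCA and that of Ugt3a1 held 1 TATAAA. Of 32851 mouse promoter windows of this length, 16% held CTTTGA, 16.3% AGGTCA, 13.6% TATAAA and 32.4% GCGTG. Of the 25 tested members with a window in the table, 7 held CTTTGA, 7 AGGTCA, 5 TATAAA and 4 GCGTG. A match is a description of the letters only, and the arrays measured no binding.

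Other lists were read on the same arrays, with no test. Of 12 tested genes known to differ between the sexes in mouse liver, 4 were above all other arrays in set 3, 3 were below, and 5 overlapped. Those above were Cyp2a4, Cyp4a12a, Cyp2u1 and C4a, and those below were Cyp4a12b, Hsd3b5 and Slco1a1. The median was -0.06 (set 3 minus the others). This list pools genes higher in males with genes higher in females, so its counts and median give no direction by sex. Cyp2a4 measured 8.47, 9.98 and 9.38 in PV 3, NPV 3 and SC 3, against 5.35 to 6.43 on the others. Male-biased Hsd3b5 measured 12.98, 13.02 and 13.30 in set 3, against 13.84 to 14.20 on the others, while male-biased Cyp4a12a measured 15.18, 14.92 and 14.78 in set 3, against 14.19 to 14.56. Of 9 Kupffer cell and macrophage markers, 6 were below all other arrays in set 3 and 0 above (median -1.17), of 10 stellate cell and fibroblast markers 4 were below and 1 above (median -0.66), and of 6 central vein endothelium markers 2 were below and 0 above (median -1.02). Sinusoidal and general endothelium had 4 of 9 below and 0 above (median -0.29). Neither the 9 pericentral hepatocyte nor the 4 cholangiocyte markers had any above or below (medians 0.01 and -0.55). All genes gave 19.0% above and 18.0% below. The part of these cells in the set differences of the enzymes was not tested.

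Genes that serve these enzymes were described from 4 lists. Of the tested genes, 0 passed in either direction in the comparison of PV with NPV, with or without the block, for cofactor supply (8 genes, median -0.04), deconjugation and other esterases (9 genes, median -0.04), electron supply and conjugate efflux (8 genes, median 0.18) and xenobiotic sensors (8 genes, median 0.04), beside 0.00 for all genes. In cofactor supply, Ugp2, which makes UDP-glucose, differed by -0.22 (SE 0.17), Papss1, which makes the sulfate donor, by -0.14 (SE 0.16) and Bpnt1, which clears its by-product, by -0.26 (SE 0.32). Pon1, the paraoxonase, measured 15.33, 15.30 and 15.42 in PV, against 14.85, 15.04 and 15.18 in NPV and 15.07, 15.17 and 15.27 in SC. Its PV arrays lay above all NPV and SC arrays, and it differed from NPV by 0.33 (SE 0.14).

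Gusb, the glucuronidase that removes glucuronic acid, differed by -0.27 (SE 0.27) and Sts, a steroid sulfatase, by -0.14 (SE 0.19). Among efflux pumps, Abcg2, which exports sulfated compounds, measured 6.48, 5.58 and 5.72 in PV against 5.64, 4.78 and 4.76 in NPV, a difference of 0.87 (SE 0.40). Its levels on NPV 2 and NPV 3 lay below the lowest detected level of those arrays (5.27 and 5.11). In SC it measured 6.13, 6.48 and 5.21, and PV minus SC was -0.01 (SE 0.40). Abcc4, a basolateral exporter of conjugates, measured 6.78, 6.95 and 6.40 in PV against 6.15, 6.47 and 5.38 in NPV, a difference of 0.71 (SE 0.36). PV exceeded NPV in 3 of 3 sets for both pumps, and the groups overlapped. Cyb5a, the electron carrier cytochrome b5, differed by 0.16 (SE 0.15). Of the sensors, Nfe2l2 differed by 0.44 (SE 0.49), Hnf4a by -0.18 (SE 0.23) and Nr1i2, the pregnane X receptor, by -0.12 (SE 0.27), and Ahr was detected on 0 arrays.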

How the data were processed

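Illumina mouse bead arrays (1 dye, Cy3) measured 9 liver samples. The deposited table holds, per the file headers, a scanner intensity and a detection p-value per probe and array, not normalized between arrays (medians 71.7 to 100.2). Per the submitters' processing notes, BeadStudio 3 was used. The authors' processed table, also of intensity, made in a way the labels leave unstated, was an alternative only.

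Background was corrected with limma 3.58.1 (R 4.3.3) by neqc (offset 16, negative-control statistics inferred through the detection p-values), then quantile-normalized and put on the log2 scale. The filter kept the 19425 probes detected (p under 0.05) on 3 or more of the 9 arrays, and each gene was represented by its brightest probe on average (13532 genes). Names were updated through RefSeq's GRCm38.p6 table, for 67 of the 71 member probes by accession. The model of 3 group means had 6 residual degrees of freedom (median residual SD 0.295), and tests were 2-sided with Benjamini-Hochberg adjustment over all genes. The smallest exact permutation p of 3 against 3 arrays is 0.1. Precision is limited by the number of arrays. The steps were tested on simulated data.

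Label numbers were used as a block because same-numbered arrays deviated together from their group means across genes (r = 0.581 to 0.885 over 9 pairs). In the labels numbers 1 and 2 stand before the group letters and 3 after them. The block's median residual SD was 0.175.

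Named genes were Ugt1a1, Sult1d1 and Ephx1 in each comparison, any member past the threshold, up to 5 per family by the smallest p between PV and NPV, Glul, and up to 3 per list of related genes. Others were chosen after their values were seen, and results of some genes are not reported here. The members and lists were chosen with earlier results of these data known. Alternatives covered background, scaling, filter, probe choice, block and left-out arrays.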

Additional observations from a re-analysis of the deposited data

How the results depend on the processing

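Over 25 other settings, 0 members passed in any comparison, except that the replicate block with median scaling called 2 higher in PV than in NPV: Sult1d1 (0.67, adjusted p = 0.0482, range over settings 0.0482 to 1) and Ugt2b34 (0.72, adjusted p = 0.0358, range 0.0358 to 1). Median scaling, with or without the block, shifted the median of all genes by 0.296 between PV and NPV, 0.151 between PV and SC and -0.144 between NPV and SC. It gave medians between PV and NPV of 0.45 for Ugt, 0.35 for Sult, 0.43 for Ces, 0.26 for Ephx and 0.33 for Fmo, between PV and SC of 0.30 for Ugt, 0.20 for Sult and 0.07 for Ephx, and between NPV and SC of -0.09 for Ugt, -0.13 for Sult, -0.23 for Ces, -0.20 for Ephx and -0.32 for Fmo. It turned Ephx1 to 0.16 (PV and NPV), 0.14 (PV and SC) and -0.02 (NPV and SC), and Ugt1a1 to 0.00 (NPV and SC). The replicate block alone changed no call among the 30 members; among genes of the other lists it called 6 pericentral markers, Glul included, and 2 central vein endothelium markers between PV and NPV, and 3 pericentral markers between PV and SC. Averaging a gene's probes gave -0.14 for Fmo5. Without all arrays numbered 3, with or without the block, PV and NPV differed by a median of 0.14 for Ces, -0.05 for Ces2a and -0.05 for Fmo5, and PV and SC by -0.01 for Sult1d1. Leaving out 1 array at a time gave 0 calls among members. Between PV and NPV the family medians then ranged from 0.09 to 0.22 (Ugt), -0.04 to 0.22 (Sult), -0.03 to 0.17 (Ces) and 0.01 to 0.40 (Fmo), and single genes from -0.01 to 0.38 (Ugt1a1), -0.25 to 0.04 (Ephx1), -0.11 to 0.21 (Ephx2), -0.20 to 0.66 (Ces1g), -0.01 to 0.15 (Ces1d), -0.15 to 0.25 (Ces2a), -0.03 to 0.19 (Ces2e), -0.25 to 0.46 (Fmo4) and -0.04 to 0.04 (Fmo5). Between PV and SC they ranged from 0.12 to 0.25 (Ugt), -0.09 to 0.15 (Sult), -0.13 to -0.05 (Ephx), -0.15 to 0.11 (Fmo), -0.09 to 0.29 (Sult1d1) and -0.17 to 0.11 (Ephx1). Between NPV and SC they ranged from -0.21 to 0.09 (Sult), -0.18 to 0.08 (Ces), -0.31 to -0.03 (Fmo) and -0.03 to 0.16 (Ephx1). The cause of these shifts was not tested beyond the scaling itself. Members near background, Sult1e1, Sult1b1, Sult2b1, Ugt1a2 and Fmo4, are drawn towards a fold of 1 by the offset.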

Other observations

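Under current names 20 further genes of the array belong to these families through older symbols, and 9 of them were tested. This list was made after the table was seen. Between PV and NPV their median difference was -0.16, with 2 of 9 positive, beside 0.11 and 23 of 30 for the genes chosen by symbol and 0.00 for all genes. None of the 9 passed limma's test with or without the block, and 0 had an unadjusted p under 0.05 without it. Ces1e differed by -0.26 (SE 0.38), with PV below NPV in 3 of 3 sets, and Ces3b by -0.26 (SE 0.19), with PV below NPV in 3 of 3 sets. Ces1a, Ces1f and Ces1c also had PV below NPV in 3 of 3 sets, with differences of -0.20, -0.16 and -0.07. The carboxylesterases chosen by symbol had differences above 0 (0.06 to 0.31), while those known by older names lay between -0.26 and 0.01. The difference between these subsets was not tested, and the Ces1 genes are near-identical tandem copies.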
